A study of Homo sapiens with 6 samples.

Results

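Human chromosome 19 carries the densest collection of C2H2 zinc finger genes in the genome, most of them in tandem arrays. Members of this family were taken as genes on chromosome 19 whose symbol is ZNF, a number and at most 1 letter, with the TPM (transcripts per 1000000, scaled by length within a library) of all transcripts of an Ensembl gene identifier summed. The rule found 249 of the 36532 gene identifiers, under 248 symbols, because ZNF709 is listed under 2 identifiers. The choice used name and position only, and no measured value. A further 269 genes with such symbols lie on other chromosomes and 1931 other genes lie on chromosome 19, and both served for comparison.

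RNA came from 4 lines of atypical teratoid rhabdoid tumor (AT/RT), named CHLA 02, CHLA 04, CHLA 05, and also CHLA 06, all grown as free-floating tumor cells in serum-free neural medium with EGF, bFGF and B-27. AT/RT is an embryonal brain tumor of early childhood, and all 4 lines were described by the study as lacking SMARCB1, a core subunit of the SWI/SNF chromatin remodeling complex. No line was treated or edited. A single library represents CHLA 02, another CHLA 05, while a pair of technical replicates was made of CHLA 04 and of CHLA 06, so each line is 1 biological sample. No test between lines was therefore possible, the spread between cultures is unknown, and the spread between technical replicates is the only error. The libraries held 10265899 to 20520229 reads on transcripts, of which 67282 to 113051 fell on members. SMARCB1 RNA was listed at 13.5 to 26.2 TPM in every library, and gene totals do not show which exons were read.

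A C2H2 zinc finger is a short loop held by a zinc ion that reads a few bases of DNA, and a row of fingers recognizes a longer site. Many of the chromosome 19 proteins also carry a KRAB domain, which recruits TRIM28 (KAP1) and through it the histone methyltransferase SETDB1 to place repressive H3K9 methylation. Several bind families of retroelements, and new members arose by tandem duplication while new retroviruses entered the primate genome. Among the 244 members with a coding sequence in GENCODE, the median number of fingers was 12 and the range 1 to 36. A pattern of the KRAB A box was found in 187 of them. For 193 of the 244, the member with the most similar coding sequence lay in the same cluster, by the clusters defined next, and this includes the 2 identifiers of ZNF709, which match each other.

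Ordered along the chromosome, with a new cluster wherever neighbouring members were over 500 kb apart, 235 members fell into 10 clusters of 5 or more and 14 were dispersed. Clusters are called by their first and last member. The largest were ZNF264 to ZNF446 near the end of the long arm, with 43 members, ZNF175 to ZNF331, with 39, and ZNF101 to ZNF254, with 35. The ZNF101 to ZNF254 cluster spans chr19:19668796-24129961 of GRCh38 on the short arm next to the centromere. Its members were the most alike, with a median identity of 82.03% to the closest other member, against 69.8% over the family.

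The promoters of this cluster also shared a sequence that the rule did not use. RefSeq promoters (GRCh38.p14, 250 bases before to 50 bases after the start) were matched for 213 of the 248 symbols. All 8-base words were counted on both strands, and the one whose share in members exceeded its share in all promoters most was chosen from that count. It was TCCAATCA, which contains the CCAAT box, the recognition sequence of the factor NF-Y. It was found in 50 of the 213 member promoters (23.5%) and in 440 of the 27305 promoters of the table (1.61%). By cluster, it was in 27 of 27 promoters of ZNF101 to ZNF254, in 19 of 24 of ZNF653 to ZNF791 and in 4 of 5 of ZNF554 to ZNF77. None of the other 7 clusters and none of the dispersed members had it. In 49 of the 50 it was on the strand of the gene, and there its first match began between 233 and 30 bases before the start, with a median of 71. Windows of 68 bases are shown 5′ to 3′ on the strand of the gene for 8 members that recur among the results or show the word in another cluster, with each match in capitals.

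ZNF486 (chr19:20167107-20167174, plus strand): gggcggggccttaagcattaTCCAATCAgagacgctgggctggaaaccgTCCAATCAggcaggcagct
ZNF626 (chr19:20661611-20661678, minus strand): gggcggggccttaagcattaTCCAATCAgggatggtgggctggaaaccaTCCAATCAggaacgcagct
ZNF85 (chr19:20923149-20923216, plus strand): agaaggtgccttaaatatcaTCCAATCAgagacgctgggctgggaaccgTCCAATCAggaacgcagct
ZNF43 (chr19:21836223-21836290, minus strand): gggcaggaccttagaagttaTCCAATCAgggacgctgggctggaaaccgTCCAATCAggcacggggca
ZNF91 (chr19:23395483-23395550, minus strand): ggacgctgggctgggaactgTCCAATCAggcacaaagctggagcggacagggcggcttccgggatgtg
ZNF726 (chr19:23914778-23914845, plus strand): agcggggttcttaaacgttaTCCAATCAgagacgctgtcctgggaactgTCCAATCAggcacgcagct
ZNF433 (chr19:12035697-12035764, minus strand): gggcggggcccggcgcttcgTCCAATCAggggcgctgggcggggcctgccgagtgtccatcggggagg
ZNF555 (chr19:2841361-2841428, plus strand): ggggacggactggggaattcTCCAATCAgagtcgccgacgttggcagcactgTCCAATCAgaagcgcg

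In 14 of the 27 promoters of ZNF101 to ZNF254 the word occurred at least 2 times, as in ZNF486, ZNF626, ZNF85, ZNF43 and ZNF726 above. The cluster also stood apart in CpG content. Its promoters had a median observed to expected CpG ratio of 0.438, and 4 of 27 (14.8%) were at 0.6 or more. Over all member promoters the median was 0.765 and 78.9% were at 0.6 or more, against 0.580 and 49.0% over all promoters. The ETS-type word CCGGAAG, in 10.7% of all promoters, was in 45.1% of the member promoters, and the TATA word TATAAA in 1.88%, against 11.95% of all promoters. Both words were searched on both strands. These matches describe the letters of the windows and do not show binding.

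Nearly the whole family was transcribed in every line. At 1 TPM or more were 233 members in CHLA 04 (93.6%) and 229 in each of the other lines (92.0%). Over all gene identifiers the shares were 37.3% to 39.7%, and over ZNF genes of other chromosomes 86.6% to 89.96%. In every line 225 members passed 1 TPM. Levels were moderate, with a median of 16.02 TPM for CHLA 02, 16.8 TPM for CHLA 04, 15.6 TPM for CHLA 05 and 12.2 TPM for CHLA 06, and only 3 members averaged 100 TPM or more. The highest was ZNF146, a protein made almost wholly of fingers, at 119.7 TPM in CHLA 02, 125 and 131 TPM across the CHLA 04 pair, 133 TPM in CHLA 05, and 106 and 107 TPM across the CHLA 06 pair. ZNF83 and ZNF561 followed, with means over the lines of 111 and 105 TPM.

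Below 1 TPM in every line were 14 members, and 4 of them, ZNF676, ZNF728, ZNF729 and ZNF285B, had no read in any library. Of the 14, 5 were in ZNF101 to ZNF254 and the other 9 were spread over 6 further clusters and the dispersed members. In the stretch of ZNF101 to ZNF254 from ZNF208 to ZNF728 (chr19:21932958-23003176), 6 of 8 neighbouring genes had a mean below 1 TPM: ZNF208, ZNF676, ZNF729, ZNF98, ZNF99 and ZNF728. The remaining 2, ZNF257 and ZNF492, were at 2.78 to 11.2 TPM and at 1.43 to 12.8 TPM. ZNF208, whose product has the most fingers of the family (36), had a single read, in CHLA 05. ZNF99 reached 1.52 TPM in 1 CHLA 04 library and had no read in CHLA 06. This stretch was singled out after its values were seen.

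The family varied less between the lines than other genes. Of the 249 members, 232 had a mean of at least 1 TPM and could be compared, and the other 17 were too low. The highest line was at least 2 times the lowest, on TPM + 1, in 66 of the 232 (28.4%), where the share over the 14827 genes compared was 49.7%. A ratio of 4 or more was found in 4 members (ZNF536, ZNF132, ZNF506 and ZNF428), where 22.4% of all genes had one. Among genes with a mean of 5 to 50 TPM, the band that holds 199 of the members, 26.6% of members and 48.3% of all genes reached 2. This band was added after the values were seen. ZNF genes of other chromosomes were close to the members at a ratio of 2 (34.0%) and had more genes at a ratio of 4 (10.4%, 25 of 241).

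**Figure D1:**
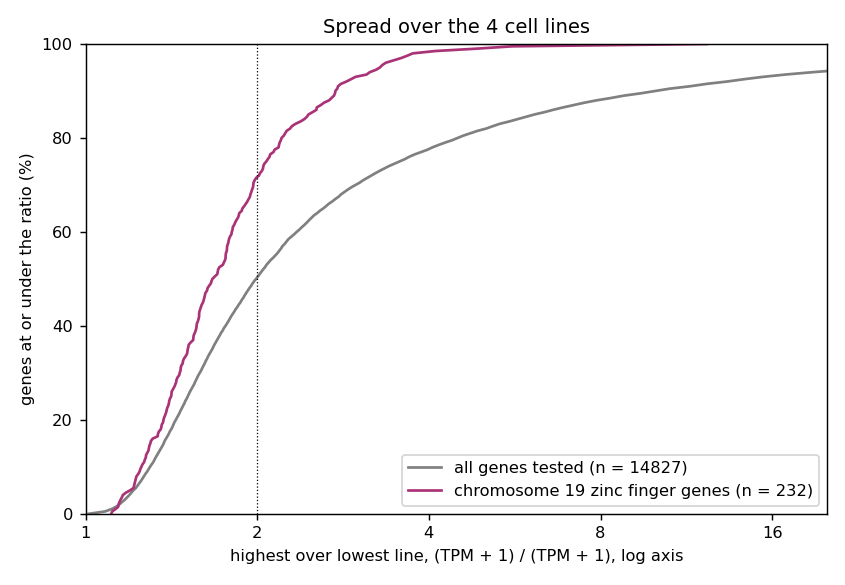
Cumulative share of genes (y axis, percent) at or under a given ratio of the highest to the lowest cell line, on TPM + 1 (x axis, log scale), for the 232 members compared and for all 14827 genes compared; the dotted line marks 2. The curve of the members lies left of that of all genes over most of its range, and 28.4% of members against 49.7% of all genes lie right of the dotted line.

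The most even members illustrate this. ZNF791 was at 32.1 TPM in CHLA 02, 28.0 and 31.7 TPM in CHLA 04, 28.9 TPM in CHLA 05, and 31.2 and 26.4 TPM in CHLA 06. ZNF780B was at 37.5 TPM in CHLA 02, 38.6 and 35.3 TPM in CHLA 04, 34.2 TPM in CHLA 05, and 35.4 and 29.9 TPM in CHLA 06. In both genes the CHLA 06 replicates lay further apart than the highest and lowest line means.

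A gene that was off in one line (below 0.5 TPM) while on in another (2 TPM or more in every library) was found 1 time among the 249 members, where 4.9% of all genes were. It was ZNF536 (ENSG00000198597, chr19:30228290-30713538), a repressor of neuronal differentiation that belongs to no cluster and has no KRAB pattern. It was at 3.89 TPM in CHLA 02, 13.6 and 8.95 TPM across the CHLA 04 pair, 0 TPM in CHLA 05, and 1.44 and 1.31 TPM across the CHLA 06 pair. The libraries of each line lay apart from those of every other line. No read among those of CHLA 05 allows up to 0.0930 TPM (3 reads), and CHLA 04 had 227 and 229 reads.

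CHLA 06 had the lowest family output. The summed TPM of members was 4902 in CHLA 02, 5784 and 5353 across the CHLA 04 pair, 5131 in CHLA 05, and 3891 and 3675 across the CHLA 06 pair. The CHLA 06 libraries were below all others. Both CHLA 06 libraries were below every other library in 110 of the 232 members (47.4%), where 29.1% of all genes were. Among ZNF genes of other chromosomes the share was 36.1%. CHLA 06 was the lowest line for 146 members (62.9%) and the highest for 15 (6.47%), where over all genes it was the lowest for 38.2% and the highest for 23.6%. The median difference of members in log2(TPM + 1) between CHLA 06 and the mean of the other 3 lines was -0.39, against -0.27 for ZNF genes of other chromosomes and -0.16 for all genes.

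TPM is a share of each library, so the shift of all genes cannot be told apart from an effect of the scale. Rescaling takes out most of such a shift whatever its cause. When libraries were rescaled by the median ratio over expressed genes, the median of all genes in CHLA 06 moved to -0.02 and that of members to -0.25. Under quantile normalization they were 0.03 and -0.14. The members with both CHLA 06 libraries below all others then fell from 110, of 232 compared on TPM, to 53. The share of all genes fell by a smaller part, from 29.1% to 20.0%, so most of the excess of members on TPM was lost on this scale. On each of these scales the median of members was under that of all genes. Markers also differed in CHLA 06. The fibroblast collagen gene COL1A1 was at 600.3 and 459 TPM there and at 387 TPM in CHLA 02. It was at 0.68 to 11.5 TPM in the libraries of CHLA 04 and CHLA 05. Neural markers went both ways. PAX6, a neuroectodermal factor, was at 0.60 and 0.94 TPM in CHLA 06 against 15.8 to 36.9 TPM elsewhere. VIM was at 19464 and 14708 TPM in CHLA 06 against 4629 to 13742 TPM elsewhere. TUBB3, a neuronal marker, was at 311 and 455 TPM in CHLA 06 against 205 to 308 TPM elsewhere. NES, at 5.21 and 10.5 TPM in CHLA 06, and SOX2, at 0 and 0.19 TPM, overlapped with other lines. The myeloid marker CD68 was at 6.34 and 22.6 TPM in CHLA 06 and at 6.36 TPM in CHLA 02, but at 0.24 to 0.90 TPM in CHLA 04 and CHLA 05. The blood marker PTPRC and the endothelial marker PECAM1 were at 0.22 TPM or less in every library. The part of these differences in the result was not tested. The study also places CHLA 06 in another molecular group of AT/RT than the other lines, which it lists as neurogenic. CHLA 06 is the only line of its group, so group and line cannot be told apart.

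**Figure D2:**
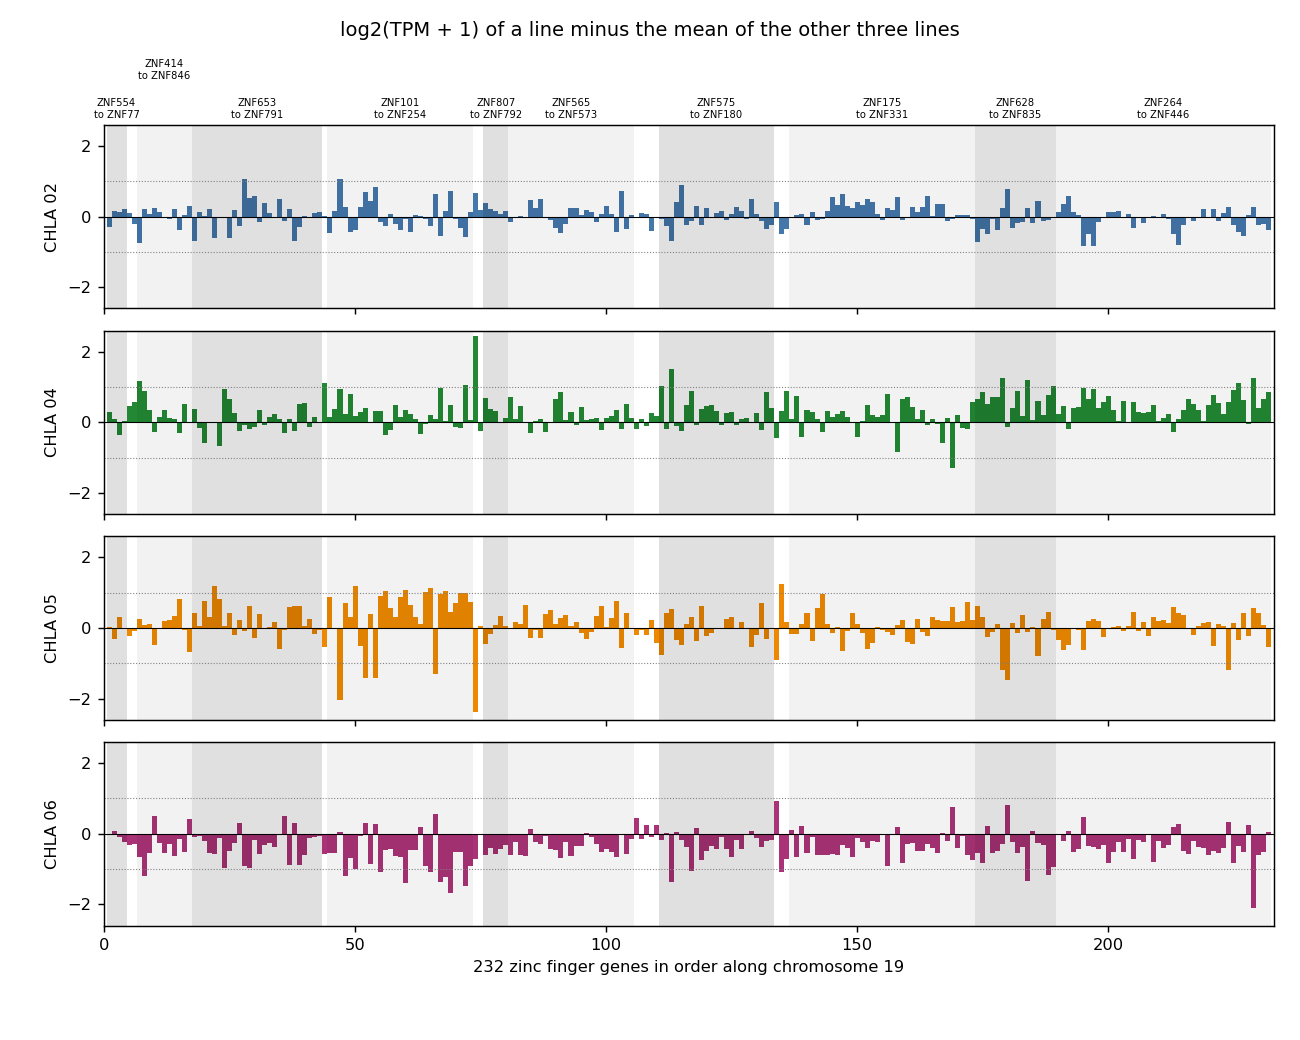
Difference of a line from the mean of the other 3 in log2(TPM + 1) (y axis) for the 232 members compared, in order along chromosome 19 (x axis), 1 panel for each cell line; shaded bands are the 10 clusters and dotted lines mark a 2-fold difference. CHLA 06 is the lowest line for 146 members and the highest for 15, and CHLA 05 has a median of 0.70 in the ZNF101 to ZNF254 cluster, where it is above all other libraries in 15 of 29 members and below them in 4.

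Past 2-fold and with all its libraries below all others, CHLA 06 had 15 members, 6.47% of those compared, where 13.7% of all genes met this rule. No member met it in the other direction in CHLA 06 (7.78% of all genes). The largest fall was in ZNF132 (ENSG00000131849, chr19:58432814-58440222), a KRAB gene often methylated in tumors. ZNF132 was at 9.72 TPM in CHLA 02, 17.7 and 15.9 TPM across the CHLA 04 pair, 11.5 TPM in CHLA 05, and 2.43 and 1.82 TPM across the CHLA 06 pair. The difference of CHLA 06 was -2.10 on the log2 scale.

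ZNF91 (ENSG00000167232, chr19:23304991-23395560), which represses SVA and HERV-derived elements and has 31 fingers, came next. It was at 119 TPM in CHLA 02, 109 and 102 TPM across the CHLA 04 pair, 103 TPM in CHLA 05, and 33.5 and 33.2 TPM across the CHLA 06 pair. The first 3 lines lay close together and CHLA 06 stood apart, with a log2 difference of -1.68. ZNF726, of the same cluster, was at 3.85 and 11.1 TPM in CHLA 06 and at 12.5 to 34.5 TPM elsewhere, so its CHLA 06 replicates were further apart than CHLA 02 was from the nearer one.

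The lists of members with known roles are to be read beside the shares for CHLA 06, in which both libraries were below all others in 29.1% of all genes and 47.4% of members. Of the retroelement binders (ZNF91, ZNF93, ZNF417, ZNF587, ZNF534, ZNF649, ZNF676 and ZNF808), 6 of 8 were high enough to compare, and 5 of the 6 had both CHLA 06 libraries below all others, with a median difference of -0.56. ZNF93, which targets LINE-1, was at 5.00 TPM in CHLA 02, 10.5 and 10.3 TPM across the CHLA 04 pair, 7.78 TPM in CHLA 05, and 4.84 and 3.59 TPM across the CHLA 06 pair. ZNF587, at 27.01 to 53.0 TPM, and ZNF417, at 2.37 to 7.01 TPM, both recognize HERV-K LTRs. Their coding sequences are 99.1% identical, so the split of reads between them is uncertain.

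Of the regulators ZNF274, ZNF568, ZNF331, ZNF304 and ZNF536, 4 of 5 were below all other libraries in CHLA 06 (29.1% of all genes), with ZNF536 the exception. Of the genes often methylated in tumors, 7 of 8 could be compared and 4 were below in CHLA 06, with a median of -0.27. Besides ZNF132, ZNF154 was at 9.67 and 7.73 TPM in CHLA 06 and at 14.0 to 21.7 TPM elsewhere, while ZNF667, at 18.8 to 23.6 TPM, overlapped between all lines. ZNF177 was below 1.5 TPM in every library, and it shares exons with the readthrough gene ZNF559-ZNF177, at 18.3 to 27.1 TPM, so its reads cannot be told apart from those of that gene. Zinc finger genes of chromosome 19 with other symbols (ZFP, ZSCAN, PEG3 and others) were below in CHLA 06 in 10 of 13, where 29.1% of all genes were. The highest of these was the imprinted gene PEG3, at 126 TPM in CHLA 02, 642 and 525 TPM in CHLA 04, 227 TPM in CHLA 05, and 2.48 and 2.73 TPM in CHLA 06.

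The genes of the KRAB silencing machinery were all transcribed, each at a mean of 4.71 TPM or more in every line. Both CHLA 06 libraries were below all others in 5 of these 18 genes and above all others in 1, beside 29.1% of all genes below, with a median difference of -0.26. TRIM28, the corepressor, was at 234 TPM in CHLA 02, 462 and 419 TPM across the CHLA 04 pair, 317 TPM in CHLA 05, and 296 and 268 TPM across the CHLA 06 pair. SETDB1 was at 53.2 TPM in CHLA 02, 73.2 and 61.6 TPM in CHLA 04, 87.6 TPM in CHLA 05, and 54.9 and 42.7 TPM in CHLA 06. For TRIM28 the lowest library was CHLA 02, and for SETDB1 the CHLA 06 libraries lay on both sides of CHLA 02. HDAC1, a histone deacetylase of the corepressor complex, was higher in CHLA 06, at 342 and 332 TPM against 116 to 218 TPM, and CBX1, which binds methylated H3K9, was lower, at 105 and 129 TPM against 167 to 378 TPM.

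CHLA 05 differed from the other lines mainly in the ZNF101 to ZNF254 cluster next to the centromere. The summed TPM of this cluster was 674 in CHLA 02, 661 and 776 across the CHLA 04 pair, 878 in CHLA 05, and 380 and 454 across the CHLA 06 pair. CHLA 05 was thus at 1.46 times the mean of the other 3 lines, and CHLA 06 at 0.551 times. CHLA 05 was the highest library of all 6 in 15 of the 29 members compared in this cluster (51.7%) and in 31 of the 203 members elsewhere (15.3%), where 23.2% of all genes were. The median difference of CHLA 05 was 0.70 in the cluster and 0.05 in the rest of the family. The 14 genes inside the same stretch that are no members had a median of 0.81 in CHLA 05 and -0.74 in CHLA 06.

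**Figure D3:**
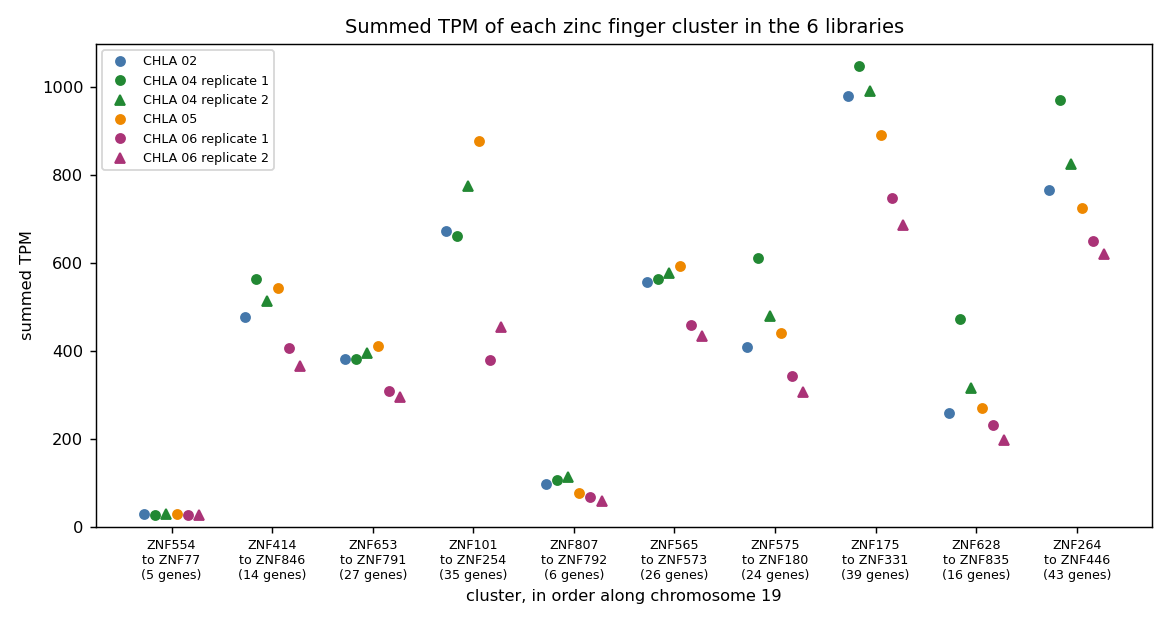
Summed TPM (y axis) of the 10 clusters in order along chromosome 19 (x axis) in each of the 6 libraries; circles and triangles of 1 color are technical replicates. CHLA 06 is lowest in 10 of the 10 clusters, and CHLA 05 is the highest library in the ZNF101 to ZNF254 cluster, at 878 TPM.

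Of the 8 members that were 2-fold higher in CHLA 05 and above all other libraries (9.95% of all genes met this rule), 6 were of this cluster: ZNF682, ZNF85, ZNF708, ZNF100, ZNF43 and ZNF730. ZNF43, a KRAB repressor, was at 36.2 TPM in CHLA 02, 38.4 and 54.1 TPM across the CHLA 04 pair, 75.3 TPM in CHLA 05, and 22.9 and 23.7 TPM across the CHLA 06 pair. ZNF708 was at 28.8 TPM in CHLA 02, 37.0 and 34.8 TPM in CHLA 04, 53.1 TPM in CHLA 05, and 12.9 and 14.8 TPM in CHLA 06. In both genes CHLA 05 was highest and CHLA 06 lowest with no overlap, and both are among the 15 members that were 2-fold lower in CHLA 06. Of those 15, 8 were of this cluster.

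The rise in CHLA 05 was not shared by all neighbours. Among the 7 members that were 2-fold lower in CHLA 05 (4.5% of all genes), 4 were in the same cluster. ZNF506 was at 10.3 TPM in CHLA 02, 11.9 and 7.15 TPM across the CHLA 04 pair, 1.24 TPM in CHLA 05, and 6.88 and 4.36 TPM across the CHLA 06 pair. The CHLA 05 value rests on 13 reads (95% exact binomial interval 0.663 to 2.13 TPM, which covers counting error only). ZNF626 was at 31.1 TPM in CHLA 02, 23.3 and 23.7 TPM in CHLA 04, 8.98 TPM in CHLA 05, and 25.0 and 21.1 TPM in CHLA 06. ZNF486 was at 4.88 TPM in CHLA 05 and at 11.2 to 16.6 TPM elsewhere, and ZNF257 was at 2.78 TPM against 4.86 to 11.2 TPM.

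In each of these 4 genes CHLA 05 was below every other library and in ZNF626, ZNF486 and ZNF257 the CHLA 06 libraries overlapped with those of CHLA 04, while in ZNF506 they were below both CHLA 02 and CHLA 04. They lie among genes with the opposite pattern, such as ZNF66 and ZNF85, of which CHLA 05 had the most. ZNF66 lies inside the span of ZNF626, on the other strand, so reads between these genes are uncertain unless strand was used in the counting. The promoters of ZNF486 and ZNF626, printed above, carry the same doubled word as those of ZNF85 and ZNF43. Promoters were matched for 27 of the 35 members of the cluster, and not for ZNF506. Since all 27 hold the word, its presence cannot be compared between the genes that were high and those that were low in CHLA 05.

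**Figure D4:**
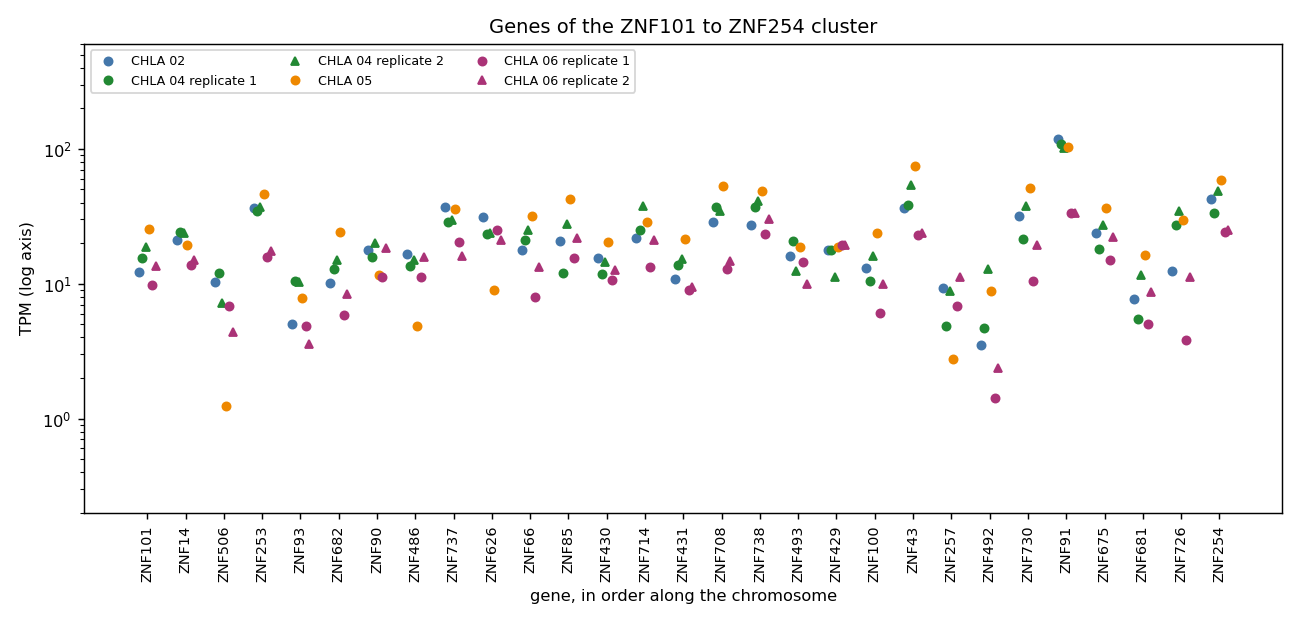
TPM (y axis, log scale) of the 29 members of the ZNF101 to ZNF254 cluster that were compared, in order along the chromosome (x axis), in each of the 6 libraries; circles and triangles of 1 color are technical replicates. CHLA 05 is the highest library in 15 genes and the lowest in 4 (ZNF506, ZNF486, ZNF626 and ZNF257), and ZNF91 falls to 33.5 and 33.2 TPM in CHLA 06.

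CHLA 04 had the highest value of the 4 lines in 105 of the 232 members (45.3%), and it was also the most frequent highest line over all genes (36.02%) and over other genes of chromosome 19 (55.5%). Toward the end of the long arm it was the highest line in 12 of 16 members of ZNF628 to ZNF835 and in 32 of 43 of ZNF264 to ZNF446. The median differences were 0.68 and 0.44, against 0.23 over the family, 0.44 over other genes of chromosome 19 and 0.12 over all genes. The technical replicates disagreed there, with summed TPM of 473 and 315 in ZNF628 to ZNF835, where CHLA 02 had 258 and CHLA 05 had 269. The members 2-fold higher in CHLA 04 and above all others numbered 10 (9.1% of all genes). Without its second replicate the count was 25, and without its first it was 6.

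Among the 10, ZNF428 (ENSG00000131116, chr19:43607219-43619874), a short protein with 1 finger by the pattern used, was at 54.0 TPM in CHLA 02, 209 and 132 TPM across the CHLA 04 pair, 104 TPM in CHLA 05, and 45.2 and 30.5 TPM across the CHLA 06 pair. Its 2 CHLA 04 values lay further apart than CHLA 05 was from the lower of them. ZNF580 was at 41.1 and 20.9 TPM in CHLA 04, 17.8 TPM in CHLA 02, 7.97 TPM in CHLA 05, and 14.6 and 11.8 TPM in CHLA 06, and without the first CHLA 04 replicate its difference fell from 1.26 to 0.71. The 1 member 2-fold lower in CHLA 04 (8.47% of all genes) was ZNF525, at 4.24 and 4.38 TPM there and at 9.05 to 14.7 TPM elsewhere.

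CHLA 02 was above all other libraries, by any size, in 37 members (15.9%), where 6.39% of all genes were. It had 1 member 2-fold higher (1.64% of all genes). This was ZNF433, whose promoter is printed above, at 36.2 TPM in CHLA 02, 19.3 and 19.4 TPM across the CHLA 04 pair, 19.4 TPM in CHLA 05, and 12.4 and 12.2 TPM across the CHLA 06 pair. CHLA 04 and CHLA 05 were alike in this gene, with CHLA 02 above and CHLA 06 below them. No member was 2-fold lower in CHLA 02 (0.789% of all genes).

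The same loci were read a second time through LTR (long terminal repeat) elements, the retroviral sequences that the study measured by mapping the reads to RepeatMasker features on a scale of their own. Zinc finger genes hold many of these elements. Of the 14397 LTR elements on chromosome 19, 2344 (16.3%) lay inside 231 of the members, and they took 39.2% of the chromosome 19 LTR reads. They took 1.80% of all LTR reads in CHLA 02, 1.42% and 2.03% across the CHLA 04 pair, 2.37% in CHLA 05, and 1.87% in either CHLA 06 library.

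Most of the reads were on elements that point the way of the gene. Among elements inside 1 member and no other gene, 580 of 1633 (35.5%) had the strand of the gene, and these took 30547 of 33302 reads (91.7%). The share was 91.2% to 92.1% in each of the 6 libraries. These reads cannot be told apart from unspliced or alternatively spliced RNA of the host gene. If strand was used in the counting, such RNA would be credited only to elements on the strand of the gene.

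**Figure D5:**
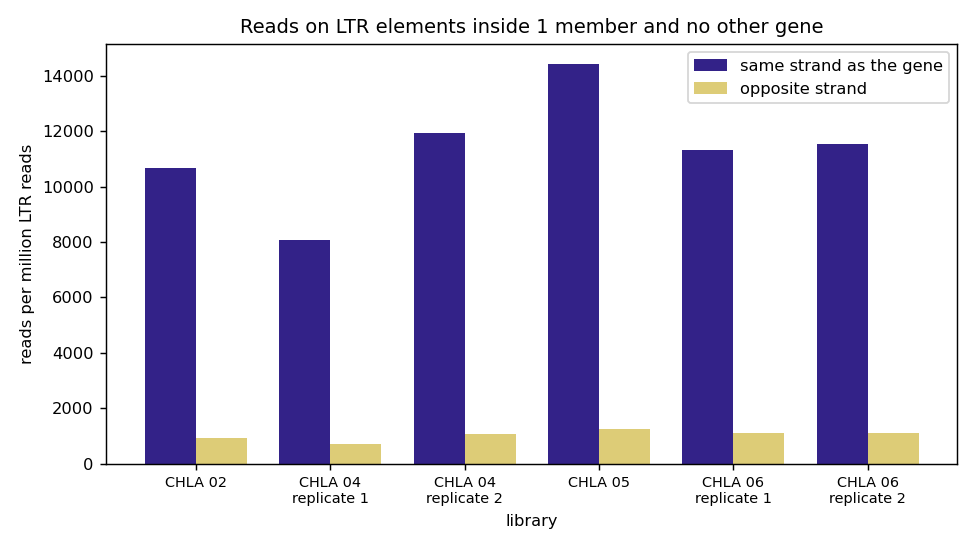
LTR reads scaled to 1000000 per library (y axis) on LTR elements inside 1 member and no other gene, in the 6 libraries (x axis), for the 580 elements on the strand of the gene and the 1053 on the opposite strand. Elements on the strand of the gene hold 91.2% to 92.1% of these reads in every library, and CHLA 05 has the highest bar, at 14431.

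The element with the most reads was a HERVL40-int fragment of 390 bp (chr19:9652381-9652770) that overlaps an exon of ZNF562 and is on its strand. It had 174 reads in CHLA 02, 107 and 226 across the CHLA 04 pair, 160 in CHLA 05, and 214 and 199 across the CHLA 06 pair. A second HERVL40-int fragment of 402 bp lies in ZNF561, the neighbouring paralog, also on an exon. It had 131, 54, 144, 228, 171 and 169 reads in the same order of libraries, and ZNF561 itself was highest in CHLA 05, at 155 TPM against 81.8 to 100.4 TPM.

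The rise of CHLA 05 in the cluster next to the centromere was also seen in this readout, but not in this cluster alone. Elements inside its members had 5238 reads of every 1000000 LTR reads in CHLA 02, 4112 and 6701 across the CHLA 04 pair, 9153 in CHLA 05, and 4753 and 6125 across the CHLA 06 pair. CHLA 05 was highest, above the spread of either pair of replicates, and CHLA 06 overlapped with CHLA 04 and lay around CHLA 02, unlike in the gene values, where it was lowest. In CHLA 05, elements inside ZNF730 had 2988 and those inside ZNF254 had 1708 of every 1000000 LTR reads, so much of this readout rests on these genes. A PRIMA41-int element between exons of ZNF254 (chr19:24079035-24080551) had 238 reads in CHLA 05 and 94 to 157 elsewhere. Elements of the MER57A-int and MER61-int types between exons of ZNF730 had their highest LTR TPM in CHLA 05 as well. The MER57A-int at chr19:23112751-23113886 was at 155 against 55.9 to 122. These elements of ZNF254 and ZNF730 lie upstream of the RefSeq promoters used here, and are inside the genes by the longer Ensembl spans. Per 1000000 LTR reads, CHLA 05 was also the highest library in ZNF414 to ZNF846, at 1942 against 1120 to 1754. The same held in ZNF653 to ZNF791, at 1375 against 827 to 1180, and in ZNF264 to ZNF446, at 3580 against 2513 to 3435. In the remaining clusters another library was highest. The LTR scale is set over LTR features alone and cannot be compared in level with gene TPM.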

How the data were processed

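Total RNA of 4 AT/RT cell lines was sequenced as strand-specific, paired 125 bp libraries (6 libraries). The authors trimmed reads with Trimmomatic, checked them with FastQC (base calls from CASAVA 1.8.2, per the labels) and mapped them in CLC Genomics Workbench to GRCh38, with Ensembl release 82 transcripts and, separately, RepeatMasker LTR elements. The deposited values are TPM per transcript (173113) and TPM per LTR element (720177), scaled within each library. The smallest TPM step of each transcript gave back whole reads (within 0.02) for 99.2% to 100% of the values, and this gave the depth per library, 355302 to 511408 reads for LTR features. Counting intervals (95%, exact binomial) and the limit of a count of 0 (3 reads) cover counting error only.

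TPM was summed per gene identifier and technical replicates averaged per line. Differences are log2(TPM + 1) of a line minus the mean of the other 3, for genes with a mean of at least 1 TPM; a call needed 2-fold and no overlap of libraries. With 1 biological sample per line no p-value was computed. The fold differences understate changes of low genes. Calls and read steps were tested on simulated data with counting error only, which holds no spread between cultures. Python 3.11.15, pandas 2.3.3, NumPy 2.4.6, SciPy 1.17.1, matplotlib 3.10.9, edlib 1.3.9.post1 (coding identity) and Biopython 1.88 were used, with RefSeq promoters and GENCODE release 44 coding sequences (matched by identifier, 244 of 249 members). No RefSeq protein table was used here, so fingers and the KRAB pattern were found in translated GENCODE coding sequences. Named genes were the 10 highest members, the 3 largest differences per line and direction, genes off in one line, the 5 most even members, and fixed lists. Members and lists were chosen with earlier results of these data known. Alternatives were the most abundant transcript, quantile normalization, median-of-ratios scaling, other pseudocounts, filters and thresholds, other gaps, and leaving out each technical replicate.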

Additional observations from a re-analysis of the deposited data

How the results depend on the processing

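No paired analysis was possible because the results come from no test and the replicate numbers mark technical replicates of a line. Each line is 1 culture, so no difference carries a biological error. Of the 249 members, 162 had 100 or more reads in every library and 226 had 10 or more, and values under that depth are imprecise. With the most abundant transcript of each gene, the median TPM of members came to 8.33 for CHLA 02, 8.56 for CHLA 04, 8.28 for CHLA 05 and 6.75 for CHLA 06, 2 members were off in one line, and the median difference of CHLA 06 was -0.30. Under quantile normalization, medians were 13.98 TPM in CHLA 05 and 13.7 in CHLA 06, 4 members were high in CHLA 05, 7 low in CHLA 06, 3 off in one line and 53 below all others in CHLA 06, whose median difference was -0.14. The ZNF101 to ZNF254 ratios were then 1.34 for CHLA 05 and 0.636 for CHLA 06. Under median-of-ratios scaling, medians were 15.7 TPM for CHLA 04, 14.9 for CHLA 05 and 13.1 for CHLA 06, 5 members were high in CHLA 05, the CHLA 06 difference was -0.25 and the CHLA 05 cluster ratio 1.39. With the highest technical replicate, medians were 18.6 TPM in CHLA 04 and 13.2 in CHLA 06, 5 members were high in CHLA 05, the CHLA 06 difference was -0.31 and the cluster ratio 1.35. A pseudocount of 0.1 gave 13 members high in CHLA 05, an off limit of 1 TPM gave 5 off in one line, and a gap of 250 kb gave a cluster ratio of 1.53. At 1.5-fold, 109 members differed in any line, 37 were high in CHLA 04, 28 high and 13 low in CHLA 05 and 56 low in CHLA 06, and 154 had a ratio past the threshold. At 4-fold these were 3, 1, 0, 2, 1 and 4. Elements in a single member and no other gene held 1.16% of LTR reads for CHLA 02, 1.09% for CHLA 04, 1.57% for CHLA 05 and 1.25% for CHLA 06. The cause of these shifts was not tested.

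Leaving out 1 technical replicate at a time, the members high in CHLA 04 ranged from 6 to 25, those high in CHLA 05 from 5 to 11, those low in CHLA 06 from 12 to 21, those off in one line from 1 to 2 and the CHLA 04 median from 15.9 to 16.8 TPM. Members below all others in CHLA 06 ranged from 115 to 143. ZNF726 lost its 2-fold call without the first CHLA 06 replicate, at -0.96. Of the 24 named differences, 14 were past 2-fold in the main result, and one without a call counted as kept if it stayed without one. Of 329 alternative values, 287 were kept in this sense, 14 lost a call, 28 gained one and 0 changed sign. A kept value can differ in size: ZNF17 in CHLA 02 went from -0.84 to -0.06 with the most abundant transcript. Genes under the level filter in a setting gave no value there and are not counted. The settings include thresholds of 1.5-fold and 4-fold, under which a call can change though the value does not.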
